A study of Caenorhabditis elegans with 2 samples.

Results

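Divergent gene pairs are neighbouring genes whose 5' ends face each other on opposite strands, so that the DNA between them lies upstream of both. The regions described here are 250 peaks of the tagged worm protein DMD-9 that lay at such pairs, of 3706 peaks that passed the same threshold (6.75%, exact 95% interval 5.96 to 7.60%). They were chosen by measured values and position. A member is a peak of the list made from both replicates together that had a global irreproducible discovery rate (IDR) at or under 0.05, which 3.29% of 112594 ranked peaks had. Its summit lay from 1000 bp upstream to 200 bp downstream of protein-coding 5' ends on both strands, and over 100 bp from any tRNA gene. Of the other peaks, 867 lay at 5' ends of 1 strand, 2293 lay away from 5' ends, and 296 lay within 100 bp of a tRNA gene.

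The data are chromatin immunoprecipitation sequencing of whole *Caenorhabditis elegans* L4 larvae at 48 hours, synchronised by bleaching and L1 starvation, in 1 group of 2 biological replicates. Strain RJP5357 carries the CRISPR allele rp169(dmd-9::GFP::AID::TEV::3xFLAG) on chromosome IV, and anti-GFP antibody recovered the fusion protein. AID is a degron and TEV a protease site. Many worms and all their cell types went into each replicate, so the cells from which a peak came cannot be told apart. No untagged strain, other stage or treatment was compared, and read counts and the control library were not used here, so the depth is unknown. The genome build is ce11.

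DMD-9 belongs to the DM-domain family of transcription factors, named after doublesex and mab-3, which bind DNA through a zinc-containing module and are best known for sexual differentiation of the nervous system and other tissues. A divergent pair shares its upstream DNA, and a protein bound there can lie near both genes. In worms many genes stand in operons, and trans-splicing replaces the start of many transcripts, so that an annotated 5' end is often a splice site and not the start of transcription.

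The first sequences are those of the 6 members of highest signal on chromosomes II, III, IV, V and X with no annotated exon in the window, shown because their letters are what lay under strong peaks. Each runs 50 bp to each side of the summit on the plus strand of ce11, in the genome letters. Capitals mark 8-letter words that occurred on either strand in at least 3 of the 6.
K01G5.10/tasp-1, chrIII:10759200-10759300: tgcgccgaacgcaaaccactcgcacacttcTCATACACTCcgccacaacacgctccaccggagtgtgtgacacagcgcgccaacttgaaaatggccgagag
rpl-15/K11H12.8, chrIV:654878-654978: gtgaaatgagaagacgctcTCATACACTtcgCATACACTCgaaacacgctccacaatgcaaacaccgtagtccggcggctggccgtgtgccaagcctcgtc
rpl-20/Y17G9B.5, chrIV:4750014-4750114: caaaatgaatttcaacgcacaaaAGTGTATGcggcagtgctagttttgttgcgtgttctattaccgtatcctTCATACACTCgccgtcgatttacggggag
F44E5.4/F44E5.5, chrII:11759424-11759524: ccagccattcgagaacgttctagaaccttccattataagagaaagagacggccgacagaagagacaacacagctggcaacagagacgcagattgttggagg
cct-8/Y55F3AR.2, chrIV:1094313-1094413: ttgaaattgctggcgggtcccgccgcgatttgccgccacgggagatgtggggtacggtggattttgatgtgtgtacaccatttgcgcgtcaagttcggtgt
drr-2/set-16, chrIII:13643687-13643787: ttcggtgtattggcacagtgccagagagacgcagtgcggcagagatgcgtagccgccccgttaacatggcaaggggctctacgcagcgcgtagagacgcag
The first 3 hold the stretch TCATACACTC or overlapping words of it, and the other 3 hold none of these words. The 3 overlapping words were picked because these windows share them. At least 1 of them stood in 5 of all 250 member windows (2.00%), in 0.577% of windows at 5' ends of 1 strand and in 0.430% of windows at the midpoints of all head-to-head pairs.

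A second set shows the words that recurred most across the whole group. All 8-letter words in the member windows were ranked by how far their count exceeded the count given by the midpoint windows, and the 5 leading words with no 5 letters in a row in common were kept. The 6 members of highest signal that held at least 2 of these words are shown, under the same limits, and capitals mark the words on either strand.
F01D4.5/ced-5, chrIV:10483849-10483949: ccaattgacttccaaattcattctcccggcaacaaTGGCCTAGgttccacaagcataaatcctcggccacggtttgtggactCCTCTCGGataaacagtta
C56A3.6/cav-2, chrV:13556810-13556910: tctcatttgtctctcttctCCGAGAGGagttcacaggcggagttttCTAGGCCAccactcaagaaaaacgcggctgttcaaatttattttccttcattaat
mib-1/smc-3, chrIII:11290686-11290786: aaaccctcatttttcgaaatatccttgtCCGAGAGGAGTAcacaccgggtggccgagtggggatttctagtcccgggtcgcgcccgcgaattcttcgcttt
rict-1/gfm-1, chrII:13117281-13117381: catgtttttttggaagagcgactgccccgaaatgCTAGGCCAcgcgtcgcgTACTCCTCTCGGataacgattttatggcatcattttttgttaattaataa
C14B9.8/mrpl-18, chrIII:8144724-8144824: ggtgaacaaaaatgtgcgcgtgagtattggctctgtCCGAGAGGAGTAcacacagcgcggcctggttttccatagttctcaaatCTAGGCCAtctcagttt
gna-1/B0024.13, chrV:10320316-10320416: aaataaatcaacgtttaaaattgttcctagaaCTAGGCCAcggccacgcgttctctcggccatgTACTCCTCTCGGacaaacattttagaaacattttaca
In 4 of these 6 windows CCGAGAGG and GAGGAGTA overlap in 1 run, read on either strand, and 5 of the 6 also hold CTAGGCCA.

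Most summits lay between the facing 5' ends. The window reaches 1000 bp upstream but only 200 bp downstream of a 5' end. By itself this favours summits between the ends, so the share is a description. Of 250 members, 217 (86.8%, exact 95% interval 82.0 to 90.7%) had the summit between the nearest 5' end on the minus strand and the nearest on the plus strand. In 32 members (12.8%) the summit lay past a 5' end, inside the gene or its transcript, by 3 to 175 bp with a median of 31.5 bp, and in 1 the 5' ends crossed. In 246 members the nearest pair was an adjacent head-to-head pair, and 20 members had more than 1 gene on a strand in the window. Together the members lay at 238 different gene pairs, of which 12 had 2 members. Across all members, 20 shared the same peaks of both replicates with another member, so 2 members need not be 2 separate peaks. They lay in the 5' end window of 492 protein-coding genes, 2.46% of 19985.

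The 5' ends of the nearest pair lay a median of 498.5 bp apart, with a middle range of 319 to 794 bp and a maximum of 1831 bp. For the 217 summits between 5' ends, the nearer end was a median of 158 bp away and the farther 376 bp. The nearer end lay within 50 bp in 37 and within 200 bp in 143. The summit stood at a median of 0.300 of the interval, counted from the nearer end. The nearer gene was on the plus strand in 114 of 217 (52.5%, exact 95% interval 45.7 to 59.3%), so neither strand was preferred beyond the counting error.

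**Figure D1:**
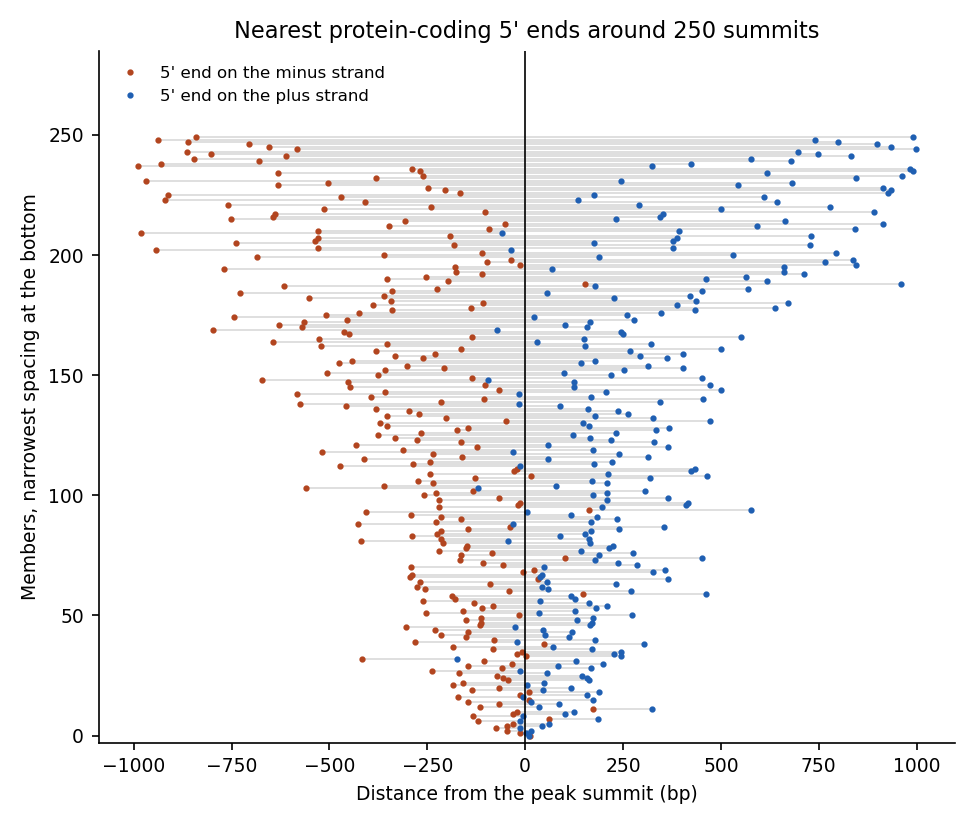
Distance in bp from each summit (at 0) to the nearest protein-coding 5' end on the minus strand and on the plus strand, with 1 line for each of the 250 members, ordered by spacing. In 217 members the minus-strand end lies to the left and the plus-strand end to the right of the summit, and points on the wrong side belong to the 32 with the summit past a 5' end and the 1 whose 5' ends cross.

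The narrowest and widest pairs show the range. The 5' ends of rpb-7, a subunit of RNA polymerase II, and Y54E10BR.2 overlapped by 3 bp, with the summit 13 bp inside rpb-7. Those of F25H9.6 and F25H9.7 stood 15 bp apart, and the summit lay between them at a signal of 302, the fifth highest of all members. Y57E12AL.6 and Y57E12AL.1 stood 60 bp apart, F01F1.11 and F01F1.3 61 bp, and C01G10.10 and C01G10.9 89 bp. At the other end, egrh-2, which encodes a zinc-finger protein of the EGR family, and lep-2 stood 1831 bp apart, with the summit 841 bp from egrh-2 and 990 bp from lep-2. The Y39B6A.29/Y39B6A.25 pair stood 1680 bp apart and the mif-4/ipla-6 pair 1659 bp. Signal and spacing had little relation across the 250 members, with a Spearman's rho of -0.07 given as a description.

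The genome held 2560 adjacent head-to-head pairs with 5' ends at most 2000 bp apart, and 234 of them (9.14%) had a member. Pairs with a member had a median spacing of 494 bp, and pairs without one 703 bp. The share was 15.9% of pairs spaced 301 to 400 bp, 13.5% at 401 to 600 bp, 8.25% at 101 to 200 bp and 1.84% at 1501 to 2000 bp. The window itself limits this: the stretch in which a summit counts grows with the spacing in close pairs and shrinks in wide ones. In a pair over 1000 bp apart only part of the interval lies within 1000 bp of both ends. The shares of the widest pairs thus cannot be read as fewer peaks between them. Nor can the medians and the other shares be read as a preference of the peaks for a spacing.

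**Figure D2:**
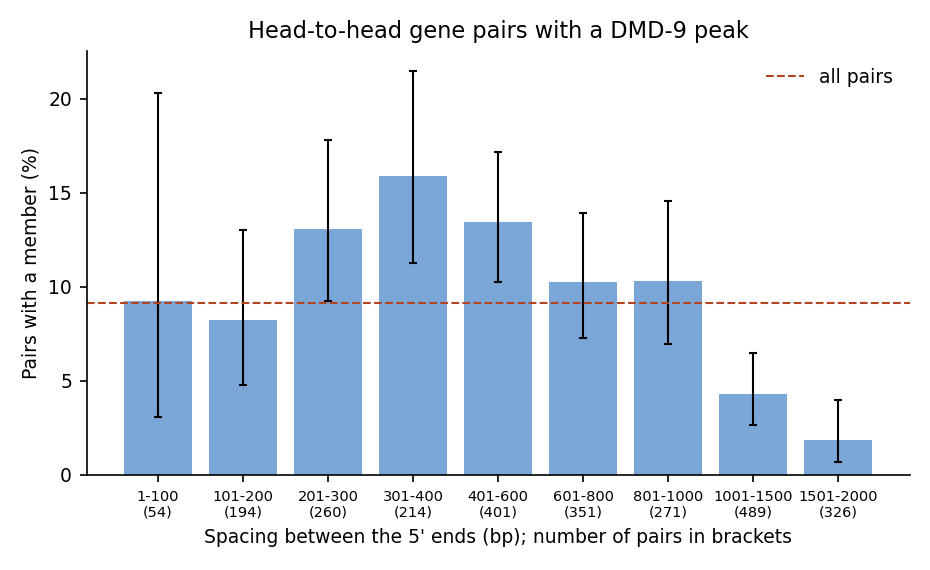
Percentage of head-to-head gene pairs with a member, by the spacing of their 5' ends in bp, with exact 95% intervals and the number of pairs in brackets. The dashed line is the 9.14% of all pairs. The bars of 201 to 1000 bp stand above it, that of 1 to 100 bp is at 9.26%, and those of 101 to 200 bp and over 1000 bp stand below.

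The share of pairs with a member varied between chromosomes, given as counts with no test. On chromosome III 58 of 385 pairs had one (15.1%, exact 95% interval 11.6 to 19.0%), and on chromosome I 50 of 428 (11.7%, 8.80 to 15.1%). The shares were 8.41% on IV, 7.30% on II and 7.24% on V. On the X chromosome 7 of 178 pairs had one (3.93%, 1.60 to 7.93%). X held 2.8% of all members, 6.95% of all head-to-head pairs, and 142 (16.4%) of the 867 peaks at 5' ends of 1 strand. All 7 X members had a signal under 100, and dnj-14/glit-1 was the highest at 93.2 (49.3 in replicate 1 and 41.5 in replicate 2), where dnj-14 encodes a J-domain protein of neurons.

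Signals at members were near those of peaks at tRNA genes and above those of the other peaks. The deposited signal is the peak caller's value, not scaled between lists, and values in the pooled list come near the replicates' values added up. Members had a median pooled signal of 86.0 (middle range 62.2 to 137, maximum 447), peaks within 100 bp of a tRNA gene 83.0, peaks at 5' ends of 1 strand 65.0, and peaks away from 5' ends 60.7. The strongest single peak was not a member: peaks at 5' ends of 1 strand reached 683. Signal took part in choosing the members through the IDR, so these values are a description.

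In replicate 1 the members' signals had a median of 45.2 (lowest 14.0, highest 216), and in replicate 2 a median of 45.5 (lowest 15.8, highest 267). A peak in both replicates' ranked lists overlapped 241 members. Across these the log2 ratio of replicate 1 to replicate 2 had a median of -0.06 and a range of -1.66 to 1.28, and in 221 (91.7%) the values were within 2-fold of each other. Spearman's rho between the replicates was 0.694 over the 241 members and 0.396 over 804 peaks at 5' ends of 1 strand. The IDR favours peaks alike in rank, so this is a description of the selected peaks.

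Each replicate also had its own thresholded list, at a global IDR of 0.01. Of the members, 101 (40.4%, exact 95% interval 34.3 to 46.8%) overlapped the list of replicate 1, against 20.5% of peaks at 5' ends of 1 strand and 15.3% of all peaks that passed. For the list of replicate 2 the count was 103 (41.2%, 35.0 to 47.6%), against 18.8% and 14.6%. In all 78 members were in both lists, 23 in that of replicate 1 alone, 25 in that of replicate 2 alone and 124 (49.6%) in neither. The 78 had a median signal of 172 and the 124 a median of 62.8. The highest signals among the 124 were 111.8 at pdi-3/ubql-1, 101 at C17H12.2/vha-8 and 94.4 at exoc-7/tufm-2. These pairs include a protein disulfide isomerase (pdi-3) and a subunit of the vacuolar proton pump (vha-8). The q value of the caller exceeded 0.05 for 126 members (50.4%), against 77.4% of peaks at 5' ends of 1 strand.

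**Figure D3:**
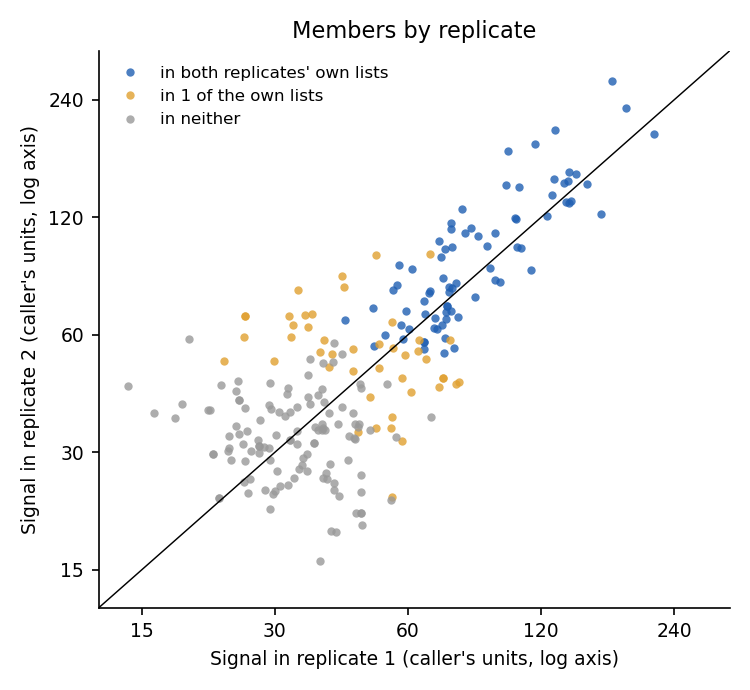
Signal of each of 241 members in replicate 1 and replicate 2, in the caller's units on log axes, coloured by presence in the replicates' own lists. The line marks equal values. The members in both lists lie along the line at high signal, and those in neither, with a median pooled signal of 62.8, form a rounder cloud at the lower left.

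Members of 2 kinds need care. In 14 members the pooled signal was below that of a replicate (median pooled signal 7.84, median of the higher replicate 39.7), and 11 of these shared both replicates' peaks with a neighbouring member. At dad-1/tre-1, for example, 1 member had a signal of 117 and the other 9.29, with the same replicate values of 71.9 and 46.5. Without such peaks 236 members were left, of which 89.4% had the summit between the 5' ends. The other kind had further copies of its sequence: 13 members (5.20%) had at least a second copy in the genome at 90% identity, against 9.46% of peaks at 5' ends of 1 strand. Among these were nrde-2/atad-3 with 7 copies, supr-1/dnj-28 with 20, rpl-7A/set-21 with 2 and, with the most, ruvb-1/tofu-1 with 66. Reads from such copies may be placed at any of them. Leaving out the peaks of either kind changed no call reported here.

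Summits of 4 members lay within 100 bp of a snoRNA, snRNA or rRNA gene, at tmem-107/rps-26 (83 bp), tim-1/Y75B8A.23 (24 bp), chst-1/C41C4.9 (54 bp) and W04G5.16/W04G5.8 (inside one). At the IDR threshold the members just inside were F59E12.17/zyg-1 (global IDR 0.0499, signal 53.7), acdh-13/mesp-1 (0.0497, signal 46.9) and T28A11.20/T28A11.4 (0.0487, signal 47.7). Just outside were del-2/degl-2 (0.0504, signal 55.4), his-61/his-62 (0.0506, signal 44.6) and ZK643.5/ZK643.2 (0.0513, signal 52.8), so the signals on the 2 sides overlapped.

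The strongest member lay between F56G4.6 and wbp-4 (chrI:11374370-11374545), with 173 in replicate 1, 267 in replicate 2 and 447 in the pooled list. The next lay 57 bp upstream of tasp-1, the taspase homologue, and 728 bp from K01G5.10 (chrIII:10759175-10759329), with 187 in replicate 1, 228 in replicate 2 and 427 pooled. Both replicates placed these peaks high, and all 15 strongest members were in both replicates' own lists.

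Of the 15 strongest, 6 lay beside a gene of the cytosolic ribosome. The third lay between rpl-15, a large-subunit protein gene, and K11H12.8 (chrIV:654852-655009), with 216 in replicate 1 and 196 in replicate 2. The rpl-20/Y17G9B.5 peak had 129 in replicate 1 and 201 in replicate 2. The rps-19/hsr-9 peak, at a small-subunit gene, had 152 in replicate 1 and 146 in replicate 2. The ifet-1/rps-1 pair joins the eIF4E-binding repressor ifet-1 with a small-subunit gene, and had 135 in replicate 1 and 147 in replicate 2. The tmem-107/rps-26 peak had 138 in replicate 1 and 149 in replicate 2, and rps-23/dpm-3 139 and 130 in the same order.

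Of the other strong members, the cct-8/Y55F3AR.2 peak, at a subunit of the cytosolic chaperonin, had 138 in replicate 1 and 157 in replicate 2. The F44E5.4/F44E5.5 pair consists of facing hsp-70 family genes, spaced 351 bp apart, and its peak had 143 in replicate 1 and 155 in replicate 2. The drr-2/set-16 peak, between an eIF4H homologue and an MLL-type histone methyltransferase gene, had 128 in replicate 1 and 151 in replicate 2. The remaining ones were prp-19/K10D2.5 at a splicing factor gene (pooled signal 275), nrde-2/atad-3 at a nuclear RNAi gene and a mitochondrial ATPase gene (278), cux-7/C07H6.2 (274) and F25H9.6/F25H9.7 (302). The cux-7 peak was the only one of the 15 with its summit outside the interval, 9 bp inside cux-7. Among the 50 strongest members 48 summits lay between the 5' ends, against 169 of the other 200.

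The genes at members were counted in 23 lists of gene symbols, set beside all genes of head-to-head pairs, of which 470 of 5120 (9.18%) had a member. The list with the highest share was the cytosolic ribosomal proteins: 27 of 83 genes had a member, and all 27 stood in head-to-head pairs, so that 27 of 50 such genes (54.0%) had one. Translation initiation and elongation factors followed with 9 of 25 genes in pairs (36.0%), and chaperones with 10 of 35 (28.6%). Nuclear pore and transport genes had 6 of 25, RNA polymerase and mediator genes 4 of 17, vacuolar ATPase and membrane traffic genes 13 of 56, splicing genes 8 of 43 and oxidative phosphorylation genes 6 of 41. The lists were chosen with earlier results known, and these shares are counts with no test.

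The same lists also had genes at peaks at 5' ends of 1 strand. The counts at members take all 492 genes with a member in their 5' end window. The nearest genes alone numbered 474 at members and 803 at 1-strand peaks, so equal counts are not equal shares. The counts over each whole list were 27 genes at members and 16 at 1-strand peaks for cytosolic ribosomal proteins, 9 and 3 for translation factors, 11 and 8 for chaperones, and 14 and 14 for vacuolar ATPase and membrane traffic. Nuclear pore genes had 6 and 6, RNA polymerase and mediator genes 6 and 6, splicing genes 8 and 10, and oxidative phosphorylation genes 6 and 8, in the same order. The counts at members depend on the list of peaks, as does the number of members. At a global IDR of 0.01 the main list gave 176 members. Lists of replicate 2 and replicate 1 alone, also cut at 0.01, gave 101 and 103, against 250 in the main list at 0.05. In the same order, ribosomal protein genes at members numbered 12 and 14, and translation factors 4 and 4. Chaperones numbered 5 and 6, and membrane traffic genes 4 and 6. At a q at or under 0.05, which left 124 members, ribosomal protein genes numbered 13, chaperones 7 and membrane traffic genes 7.

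Near the background were tRNA synthetases (2 of 15), ubiquitin conjugation (3 of 25), mitochondrial ribosomal proteins (2 of 27), DNA replication and cell cycle (3 of 42), histones (5 of 65) and nuclear hormone receptors (3 of 44). Proteasome genes had 1 of 22, sperm genes 1 of 29, collagens 1 of 44 and homeobox genes 1 of 10. Chemoreceptor genes had 3 of 282 (1.06%), the lectins and lysozymes of innate immunity 0 of 91, and neuropeptides 0 of 14. The DM-domain genes had 0 of 1 in pairs and 0 of 10 in all. The mitochondrial import list had 1 of 7, and the gene it matched by symbol, tim-1, is the worm Timeless homologue and no import component.

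**Figure D4:**
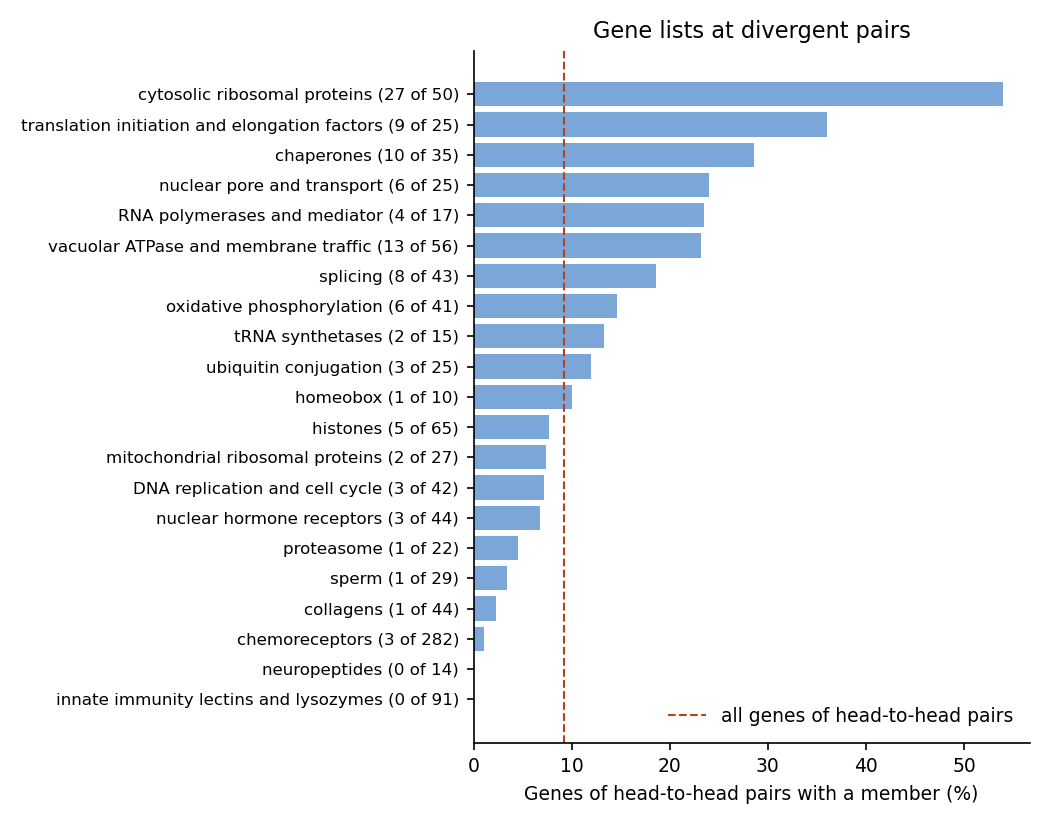
Percentage of the genes of head-to-head pairs that had a member, for the lists with at least 10 genes in such pairs. The dashed line is the 9.18% of all genes in pairs. Cytosolic ribosomal proteins reach 54.0%, and chemoreceptors 1.06%.

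Of the 27 ribosomal genes, 12 had the summit nearer to their own 5' end than to the facing one. Summits lay a median of 267 bp upstream of the ribosomal gene and 227 bp upstream of the facing gene. The rpl-12/lin-54 peak was 38 bp from rpl-12 and 355 bp from lin-54, a DREAM complex subunit gene, with 83.1 in replicate 1 and 112 in replicate 2. In contrast, the rpl-43 peak was 730 bp from rpl-43 and 191 bp from Y48B6A.1, with 86.2 in replicate 1 and 108 in replicate 2. Of the 27, 12 had a peak in both replicates' lists, all with pooled signals from 163 to 408.

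Pairs with genes of 1 list on both strands were few. The lists match gene symbols only, so the strong F44E5.4/F44E5.5 pair described above was not counted. Ribosomal genes faced each other at rps-10/rpl-24.1 (38.4 in replicate 1 and 35.5 in replicate 2), rpl-39/rps-30 (34.7 and 29.0 in the same order) and rps-14/rpl-36 (30.1 and 23.8). These 3 peaks were weak among the ribosomal ones, and none was in either replicate's own list. The SR-protein splicing genes rsp-2 and rsp-1 shared a peak of 55.5 in replicate 1 and 78.3 in replicate 2. The histone pairs his-6/his-5 (pooled signal 72.9) and his-60/his-59 (4.75) have near-identical copies elsewhere, so their reads are uncertain.

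Single genes from the other lists show the range of signals. Among translation genes, iff-2, which encodes the elongation factor eIF5A, had 105 in replicate 1 and 119 in replicate 2 at iff-2/F54C9.14. The rict-1/gfm-1 peak, at a mitochondrial elongation factor gene, had 61.2 in replicate 1 and 88.6 in replicate 2. The eef-1A.1/rfc-4 peak, between an elongation factor gene and a gene of the replication clamp loader, had 71.7 in replicate 1 and 63.7 in replicate 2. The ctf-4/eef-1G peak had 60.4 in replicate 1 and 62.1 in replicate 2.

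Among the folding genes, hsp-60, the mitochondrial chaperonin, had 105 in replicate 1 and 119.5 in replicate 2. The hsp-110/rpn-3 peak, between a cytosolic chaperone and a proteasome lid gene, had 69.2 in replicate 1 and 66.2 in replicate 2, with the summit 236 bp from hsp-110 and 208 bp from rpn-3. The ATP synthase genes atp-1 (mcrs-1/atp-1, summit 5 bp from atp-1) and atp-5 (atp-5/lmtr-3) had pooled signals of 172 and 127. In the secretory pathway sec-61.B/trap-3 joins a translocon subunit with a translocon-associated protein gene, and had 106 in replicate 1 and 101 in replicate 2.

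Nuclear genes included npp-3/top-2, between a nucleoporin and a topoisomerase gene, with 65.4 in replicate 1 and 67.6 in replicate 2. The wapl-1/htz-1 peak, between the cohesin release factor and the histone variant H2A.Z, had 74.2 in replicate 1 and 79.7 in replicate 2. The hcp-4/pgk-1 peak, between the centromere protein CENP-C and a glycolytic kinase, had 79.6 in replicate 1 and 126 in replicate 2. The vps-51/lin-35 peak, at the worm retinoblastoma homologue lin-35, had 74.8 in replicate 1 and 58.1 in replicate 2. The rare chemoreceptor members had other genes opposite them: sri-5 faced rsr-1 (56.6 in replicate 1 and 80.2 in replicate 2) and srh-89 faced F25E5.1 (70.4 and 44.0 in the same order).

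Genes at members more often had a close same-strand neighbour downstream, the spacing typical of worm operons. Of 474 nearest genes at members, 162 (34.2%, exact 95% interval 29.9 to 38.6%) had a same-strand protein-coding gene starting within 500 bp of their 3' end. Among 803 nearest genes at peaks at 5' ends of 1 strand, 206 (25.7%, 22.7 to 28.8%) did (two-sided Fisher's exact test p = 0.00137). The share was 21.3% over all genes of head-to-head pairs and 18.0% over all protein-coding genes. Within 200 bp the shares were 25.1% of genes at members and 16.8% of genes at 1-strand peaks (Fisher's exact p = 0.000479). The difference did not pass with each replicate's own list alone: 38.6% at members and 29.0% at 1-strand peaks in replicate 1 (Fisher's exact p = 0.0617), and 34.8% and 29.6% in replicate 2 (Fisher's exact p = 0.310). Nor did it pass at a q at or under 0.05, with 35.0% at members and 27.2% at 1-strand peaks (Fisher's exact p = 0.0986). Genes are not replicates of a condition, and pairs share a peak. Members also had higher signals than 1-strand peaks. The rule asks for a facing gene at each member, which genes at 1-strand peaks need not have. The parts of signal and of this arrangement in the difference were not tested.

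The DNA under the summits was richer in G and C than that at the midpoints of all head-to-head pairs, which include the pairs with a member. In windows of 101 bp, the G+C content averaged 47.6% ± 8.16 at members (SD over 250 windows), 47.3% ± 8.99 at peaks at 5' ends of 1 strand, and 34.3% ± 8.75 at the midpoints of all 2560 pairs. Windows centred 400 bp to the left and right of the member summits averaged 37.7% and 36.7%. No test of these means was run. The mean of the midpoints lay below that of the members by more than the SD of either. G+C content can also affect how many reads a library recovers, and its part in the signal was not tested.

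**Figure D5:**
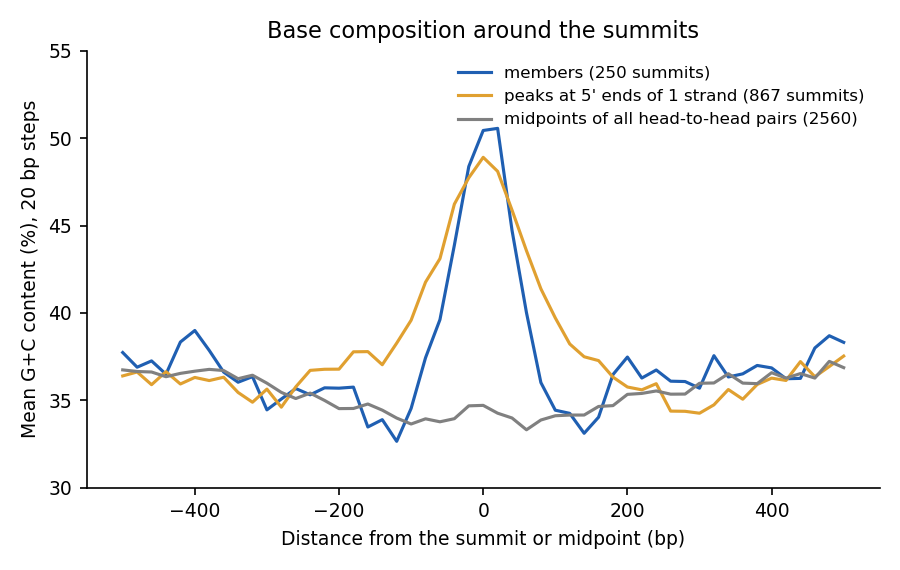
Mean G+C content in percent in steps of 20 bp around member summits, around summits at 5' ends of 1 strand, and around the midpoints of all head-to-head pairs. Both kinds of summit show a rise at 0, and the midpoints, averaging 34.3% over 101 bp, show none.

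None of 13 short motifs passed the test for a difference between members and peaks at 5' ends of 1 strand. By two-sided Fisher's exact tests with Benjamini-Hochberg adjustment, 0 of 13 passed 0.05, and 0 had an unadjusted p under 0.05. The lowest was that of ATCGAT, in 5.20% of member windows and 2.88% of 1-strand windows (Fisher's exact p = 0.110, adjusted p = 0.905). The DM-domain core ACATTGT stood in 4 member windows (1.60%), 1.38% of 1-strand windows and 1.72% of pair midpoints, and its share was lower at members than at 1-strand peaks under most other settings. The longer MAB-3 word AATGTTGC stood in 0 member windows, 0 of 1-strand windows and 0.391% of midpoints. Each motif was sought on both strands, and no match says only that these letters are not in the window.

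Pair midpoints were not matched for base composition, and the shares of several motifs were set beside them. GAGAGAG stood in 6.4% of member windows, 5.88% of 1-strand windows and 1.84% of midpoints, CCGCCC in 6.8%, 4.96% and 2.85% in the same order, and TGCGTCT in 6.0%, 4.84% and 1.56%. TATAAA stood in 4.0% of member windows and 13.8% of midpoints, TGATAA in 2.80% and 9.96%, and a run of 8 T in 3.20% and 12% in the same order. ATCGAT stood in 5.20% of member windows and 4.65% of midpoints, and GGTTCGA, the B-box of tRNA genes, in 0.40% and 0.469%.

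The 5 recurrent words were chosen because members held them, so their shares have no test. CTAGGCCA stood in 26 member windows (10.4%), in 2.42% of 1-strand windows, 1.09% of windows away from 5' ends and 0.664% of midpoints. GCGCTCCA stood in 8.40% of member windows and 1.96% of 1-strand windows, GAGGAGTA in 7.20% and 1.85%, CCGAGAGG in 6.8% and 2.08%, and AAATGCGC in 6.8% and 2.19%. Where a word lay within 250 bp of the summit, its median distance was 19 to 34 bp. At least 1 word stood in 75 members (30%), 8.77% of 1-strand windows and 3.79% of midpoints, and at least 2 words in 20 members (8.0%), 1.61% and 0.430%.

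Signal moved with this contrast. Among the 80 members and the 80 1-strand peaks of highest signal (median signals 169.9 and 187), at least 1 word stood in 30 members and in 26 1-strand peaks. CCGAGAGG stood in 10 of the 80 members and 9 of the 80 1-strand peaks, GAGGAGTA in 7 and 9, and CTAGGCCA in 11 and 4. Of the words, CTAGGCCA alone had a share more than 1.5 times higher at members in these sets. The words were picked from windows that include these 80 members, so this is a description and no separate support.

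Few copies of a word had a peak. Of 1191 copies of CCGAGAGG in the genome, 61 (5.12%, exact 95% interval 3.94 to 6.53%) had a peak within 100 bp, and for CTAGGCCA 106 of 5720 (1.85%, 1.52 to 2.24%). Between facing 5' ends, a member lay at 16 of 45 pairs with CCGAGAGG, at 27 of 90 with CTAGGCCA, at 18 of 64 with GAGGAGTA, at 30 of 134 with GCGCTCCA and at 23 of 139 with AAATGCGC. The words were picked for standing in member windows more than at pair midpoints, which by itself raises these counts, so nothing is read from them.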

How the data were processed

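The deposited peak lists are on ce11, per the labels. Replicate, pooled and paired lists were made by the authors against a control, each ranked and thresholded. The aligner and peak caller: not given in the sources used here. The deposited signal is the caller's value per peak. The deposited −log10 values hold the q value and, in ranked lists, the global IDR. The deposited score rises with the negative log2 of the IDR. The lists show thresholding at a global IDR of 0.01.

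Summits were placed against Ensembl release 115 (WBcel235, the ce11 sequence), where 99.9% of 31805 annotated start codons read ATG in the genome used. Replicate values are those of the overlapping peak (at least 1 bp) of highest signal. Copies were sought with blastn 2.17.0 (90% identity over 50% of the peak). Tests used scipy 1.17.1, and scripts were tested on simulated data. Intervals are exact (Clopper-Pearson) and cover counting error only. P-values over peaks or genes do not measure the spread between worms.

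The members, gene lists and motifs were chosen with earlier results of these data known. The rule for named genes took the 15 members of highest signal, the 5 narrowest and 3 widest pairs, 3 peaks on each side of the threshold, up to 4 genes per list, pairs with 1 list on both strands, and the 3 strongest members in neither replicate's list. Names outside that rule, the recurrent words and the sequences holding them were chosen after their values were seen.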

Additional observations from a re-analysis of the deposited data

How the results depend on the processing

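The results were recomputed under 14 other settings and 2 added after seeing the data (no peaks with a second copy, and no peaks with a pooled signal under a replicate's). No main result changed direction. A global IDR of 0.01 and the joint list gave the same values for all but the share of all peaks. They are near repeats of each other and not separate support in the counts that follow. Over the 7 main results, 69 values stayed within error, on the same side or, for counts, within 1.5-fold. Another 22 moved and 3 no longer passed. With 1 replicate left out, the remaining list was also cut at a global IDR of 0.01. The number of members (250) was 176 at a global IDR of 0.01 and in the joint and conservative lists. Members numbered 165 with a window of 500 bp upstream, 124 at a q at or under 0.05, and 101 to 103 with 1 replicate left out. Their share of all peaks (6.75%) was 12.2% at a global IDR of 0.01, 12.8% in the joint list, 13.1% in the conservative list, 4.45% with the 500 bp window, 5.88% with no downstream part, 17.4% by q, and 18.1 to 18.5% with 1 replicate left out. The share of pairs with a member (9.14%) was 6.60% at a global IDR of 0.01 and in the joint list, 6.68% in the conservative list, 6.29% with the 500 bp window, 4.77% by q and 3.87 to 3.87% with 1 replicate left out. The share of summits between 5' ends was 100% by construction with no downstream part and 91.9% by q. Median spacing was 376 bp with the 500 bp window, which limits it. Operon-like spacing was 34.8 to 38.6% at members with 1 replicate left out and 35.0% by q (27.2% at 1-strand peaks, Fisher's exact p = 0.0986), no longer past 0.05, where fewer genes were tested. Among gene list counts and motif shares, 62 moved, 388 did not, and 31 motif shares changed sides between members and 1-strand peaks, all with adjusted p over 0.05 before and after. The member shares that did so were, at a global IDR of 0.01 and in the joint list, 1.14% for the DM core, 3.98% for TATAAA and 6.82% for TGCGTCT. In the conservative list they were 0%, 3.41% and 6.82% in the same order, and 7.39% for GAGAGAG. By q they were 0%, 4.03%, 6.45% and 6.45% in that order. With the 500 bp window they were 1.21% for the DM core, 2.42% for the E-box and 5.45% for TTTTCAG. With no downstream part the DM core was at 0.917%, and with all transcripts' 5' ends the E-box was at 3.37% and GAGAGAG at 5.99%. In windows of 100 bp to each side the DM core was at 2.40% and the T run at 14%. Without peaks with a second copy the DM core was at 1.27%, and without those of low pooled signal it was at 1.27% and TATAAA at 4.24%. With 1 replicate left out the ranges were 1.98 to 4.85% for the E-box, 1.98 to 3.88% for ATCGAT, 2.97 to 4.85% for TGATAA, 3.88 to 6.93% for GAGAGAG and 0 to 0.971% for the B-box, and the DM core was at 0%. No paired analysis was possible because the series has 1 group. Depth is unknown, so no limit on undetected peaks is given.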
